A study of Mus musculus with 8 samples.

Results

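The 9 genes described here, Fgfr2, Etv1, Etv4, Etv5, Spry2, Spry4, Dusp6, Shh and Hmga2, belong to the fibroblast growth factor (FGF) response and to the distal tip of the growing fetal lung. They were taken by name and not by their values, and all 9 were among the 32285 genes of the RNA matrix. Of the 116068 peaks of open chromatin, 63 lay over these genes or within 2000 bp of them. In GRCm38, the build named by the submitters' processing notes, Fgfr2 lies at chr7:130162451-130266808, Etv5 at chr16:22381313-22439570 and Hmga2 at chr10:120361268-120476469. The question was how their levels lie across type II, type I, transitional and Sox9-high nuclei, and whether nuclei with much Sox9 also carry the programme of the fetal tip.

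The cells were mouse type II alveolar epithelial cells (ATII, the surfactant-making cells of the lung) from young and old mice, grown as alveolarspheres without serum or feeder cells. On day 9 the spheres of both groups were infected with an adeno-associated virus, AAV9_Cre carrying Cre recombinase alone or AAV9_Sox9Cre carrying Sox9 as well. All were then held for 4 days in a medium that drives differentiation to type I cells, the flat gas exchange cells. Nuclei of sorted tdTomato+ cells were read for RNA and open chromatin together (10x multiome), and the labels name 2 samples for each of Sox9Cre RNA, Cre RNA, Sox9Cre ATAC and Cre ATAC. Cre is therefore shared by both groups, and no label gives the age of the mice behind a sample. The sorted cells are a selection, since only tdTomato+ cells were read.

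FGF signalling runs from ligands made mostly by mesenchyme to receptors such as Fgfr2 on the epithelium, and from there through the ERK kinases to ETS transcription factors of the Etv group. Spry2, Spry4 and Dusp6 are induced by the same pathway and dampen it. At the distal tip of the fetal lung, epithelial progenitors carry Sox9, Etv4, Etv5 and Shh, a hedgehog ligand sent to the mesenchyme, while Hmga2 encodes a chromatin protein common in fetal tissues and low in most adult ones. In the adult lung, Fgfr2 and Etv5 are known for upholding the type II state.

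Nuclei carried 4 library prefixes, called A to D, which no label ties to a sample. The Sox9Cre and Cre groups were therefore not compared, the pooled matrix counts as 1 sample, and no p-value is given. After filtering, 7184 of 7224 nuclei remained, with 760 to 3236 nuclei, 9735964 to 39802631 UMIs (molecules counted) and median UMIs per nucleus of 9802 to 11728 by library. Sox9 UMIs numbered 4293 in C, 2354 in D, 20 in A and 14 in B. Within the 7184 nuclei, 20 barcodes occurred in more than 1 library (40 nuclei). Nuclei with at least 5 Sox9 UMIs were called Sox9-high (312 nuclei, of which A held 1, C 197, D 114 and B none). The others were called type II (2008), type I (1169) or transitional (1223, intermediate cells rich in keratin 8) if they lay in the highest 33.3% of scores for that marker list alone. A further 1277 were mixed and 1195 low for all 3 lists, and none of the 9 genes was in a list. The cuts are ranges on a score: 245 to 435 nuclei lay within 0.1 SD of each. Vector and chromosomal Sox9 cannot be told apart in these counts.

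By programme, leaving Sox9 aside, 55 of the Sox9-high nuclei were type II (17.6%), 101 transitional (32.4%), 10 type I, 19 mixed and 127 low for all lists (40.7%). Their median depth was 14368 UMIs, against 11108 over all nuclei. Sox9 itself stood at 9.20 UMIs per 10000 in them and at 0.274 in the other nuclei, which the rule for the class fixes. Of the 6 other tested genes of the cartilage list 5 were at least 2-fold higher (over all genes, 7.01%), among them Col9a3 (38.5-fold), Col2a1 (23.4-fold) and Sox6 (11.3-fold), while Sox5 was at 0.733. Airway secretory markers were 8 of 8 lower (over all genes, 4.52%), with a summed level of 1.37 UMIs per 10000 against 20.1. They were also lower in type II nuclei (8 of 8, over all genes 14.4%), type I nuclei (7 of 8, 9.45%) and transitional nuclei (4 of 8, 6.96%). The airway secretory-like cluster of 174 nuclei, part of the nuclei compared with, held 0 Sox9-high nuclei. In Sox9-high nuclei the summed mesenchymal level was 0.0167 against 0.0218, with 4 of 7 markers at 0. That of endothelial markers was 0.102 against 0.0451, from Pecam1 and Tek, with Cdh5, Kdr and Cldn5 at 0 in Sox9-high nuclei. Summed type II markers stood at 276 against 522, type I markers at 29.3 against 74.5 and transitional markers at 90.2 against 78.0. The part of these differences in the results below was not tested, other than by the comparison within programmes.

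Sequences upstream of RefSeq starts in GRCm38.p6 were at hand for Fgfr2, Etv1, Etv5, Spry2, Dusp6 and Hmga2, and not for Etv4, Spry4 and Shh. For 3 genes of the ETS and feedback group a peak of the files covered all or most of the 250 bases before a start, so these bases are shown, 5′ to 3′ along the gene. Capitals mark matches to an ETS core (CGGAAG, 13.6% of all 32851 such upstream sequences hold it on either strand) or to a SOX word (ACAATG, 10.7%, or ACAAAG, 16.5%).

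Etv5 (chr16:22439571-22439820, minus strand, all 250 bases within 1 peak): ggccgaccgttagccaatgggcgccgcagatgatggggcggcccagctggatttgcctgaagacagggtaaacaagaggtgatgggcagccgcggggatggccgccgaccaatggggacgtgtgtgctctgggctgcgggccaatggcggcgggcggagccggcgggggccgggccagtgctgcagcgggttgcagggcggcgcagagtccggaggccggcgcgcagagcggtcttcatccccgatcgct
Spry2 (chr14:105896820-105897069, minus strand, 209 bases within 1 peak): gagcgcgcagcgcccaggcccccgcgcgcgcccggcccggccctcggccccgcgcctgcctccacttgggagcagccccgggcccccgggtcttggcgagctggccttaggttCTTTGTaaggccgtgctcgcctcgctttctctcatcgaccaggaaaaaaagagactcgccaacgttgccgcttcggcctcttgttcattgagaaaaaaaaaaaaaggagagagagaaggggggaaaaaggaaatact
Dusp6 (chr10:99262981-99263230, plus strand, all 250 bases within 1 peak): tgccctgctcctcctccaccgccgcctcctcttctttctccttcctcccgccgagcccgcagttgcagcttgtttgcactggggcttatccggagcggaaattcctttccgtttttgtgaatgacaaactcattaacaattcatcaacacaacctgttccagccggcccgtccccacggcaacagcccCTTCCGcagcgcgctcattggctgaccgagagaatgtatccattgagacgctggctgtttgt

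The Etv5 sequence held no match to any of these words, Spry2 held ACAAAG read on the opposite strand (CTTTGT, at position -137 from the start), and Dusp6 held the ETS core on the opposite strand (CTTCCG, at position -62). In Etv5, which encodes an ETS factor downstream of Fgfr2, the upstream sequence is 71.2% G and C.

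The level of a gene in a class is its share of all UMIs of that class, times 10000, and its exact Poisson 95% interval covers counting error only. A fold compares a class with all other nuclei and was called from 2-fold on. Levels were not compared between genes. How often the library ranges of classes lie apart over all genes was not tested, so ranges that do not overlap are descriptions.

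In type II nuclei 3 of the 9 genes, Etv5, Etv1 and Spry4, were at least 2-fold higher (over all 16500 genes tested, 4.35%) and 1, Hmga2, was at least 2-fold lower (14.4%). Without library C the Hmga2 call, which rests on 13 UMIs, was lost. The median log2 fold of the 9 was 0.72, against -0.16 over all genes.

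Etv5 differed by class in every library. In type II nuclei its level was 3.80, 3.43, 3.33 and 3.16 in libraries A to D. In type I nuclei it was 0.776, 0.515, 0.562 and 0.615, and in transitional nuclei 0.167, 0.266, 0.200 and 0.214. The ranges of the 3 classes did not overlap, and the order type II, type I, transitional held in all 4. Pooled, type II nuclei were 5.64-fold above all others (95% interval 5.42 to 5.86), and 16.2-fold above transitional nuclei (14.5 to 18.1). In transitional nuclei Etv5 was at 0.122 of the other nuclei (0.109 to 0.136).

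Fgfr2, the receptor, followed the same order over a smaller span. It stood at 4.73, 4.02, 4.26 and 4.16 in type II nuclei of A to D, at 3.28, 3.05, 2.98 and 3.00 in type I nuclei, and at 1.89, 1.74, 1.99 and 2.02 in transitional nuclei. The 3 classes did not overlap over libraries, yet the type II fold of 1.65 (1.61 to 1.69) stayed under the call.

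The scarcer ETS genes diverged. Etv1 was counted 232 times in all, and 127 of these UMIs lay in type II nuclei, at 0.0503, 0.0488, 0.0511 and 0.0398 in A to D. Type I nuclei held 3 and transitional nuclei 12. The type II fold of Etv1 was 2.79 (2.14 to 3.65), with 2.64 in C (1.81 to 3.87) and 1.47 in D (0.895 to 2.38). In A it was 16.7 (4.87 to 88.4) and in B 16.8 (3.85 to 152). The other nuclei there held 3 and 2 UMIs, and both libraries had too few for a call. A cluster of 174 airway secretory-like nuclei, all from C and D, held 71 Etv1 UMIs, at 0.343 in C and 0.196 in D, above every library of the type II nuclei. Etv4 was highest in transitional nuclei instead, at 0.0708, 0.0958, 0.0759 and 0.0694, against 0.0419, 0.0558, 0.0449 and 0.0440 in type II nuclei. These ranges did not overlap, and the transitional fold was 1.76 (1.41 to 2.18). Type I nuclei held 29 UMIs of Etv4, with a fold of 0.446 (0.295 to 0.650).

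The feedback inhibitors also split. Spry4, an inhibitor of receptor tyrosine kinase signalling, was 2.96-fold higher in type II nuclei (2.31 to 3.81), with levels of 0.0559, 0.0872, 0.0457 and 0.0618 in A to D, and at 0.292 of the others in type I nuclei (12 UMIs). Dusp6, the phosphatase that switches off ERK, was lowest in type I nuclei at 0.198, 0.114, 0.187 and 0.155, a fold of 0.469 (0.406 to 0.540). It stood between 0.243 and 0.415 in type II nuclei and between 0.325 and 0.514 in transitional nuclei, ranges that overlapped. Spry2 stood at 0.798 to 0.875 in type II nuclei, 0.650 to 1.07 in type I nuclei and 0.474 to 0.725 in transitional nuclei. Its type I value was lowest in D and highest in A.

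Shh did not follow Etv5. It stood at 0.441, 0.460, 0.334 and 0.378 in type II nuclei and at 0.445, 0.528, 0.274 and 0.344 in type I nuclei, so these classes overlapped (type II to type I ratio 1.05, 0.935 to 1.17). Transitional nuclei held 0.0625, 0.101, 0.0418 and 0.0397, below both in every library, a fold of 0.177 (0.140 to 0.221). Hmga2 was near its limit of detection, with 102 UMIs in 7184 nuclei. Transitional nuclei held 46 of them in 18 nuclei (12, 0, 23 and 11 UMIs in A to D), a fold of 3.77 (2.49 to 5.66), and 1 nucleus of A held 10. In C and D, the 554 nuclei of the transitional programme without a Sox9 UMI held 7 UMIs of Hmga2, at 0.00986. The transitional class, which includes nuclei with some Sox9 UMIs though fewer than 5, stood at 0.0356 in C and 0.0218 in D. The part of Sox9 in this fold was not tested. Markers of other cell types also differed in transitional nuclei. The summed level of ciliated markers was 0.749 against 0.317 (5 of 7 genes higher), of mesenchymal markers 0.0615 against 0.0129 (87 of these UMIs from Col1a1, with 4 of 7 genes at 0), and of immune markers 0.171 against 0.0788. Their part in the transitional values was not tested.

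**Figure D1:**
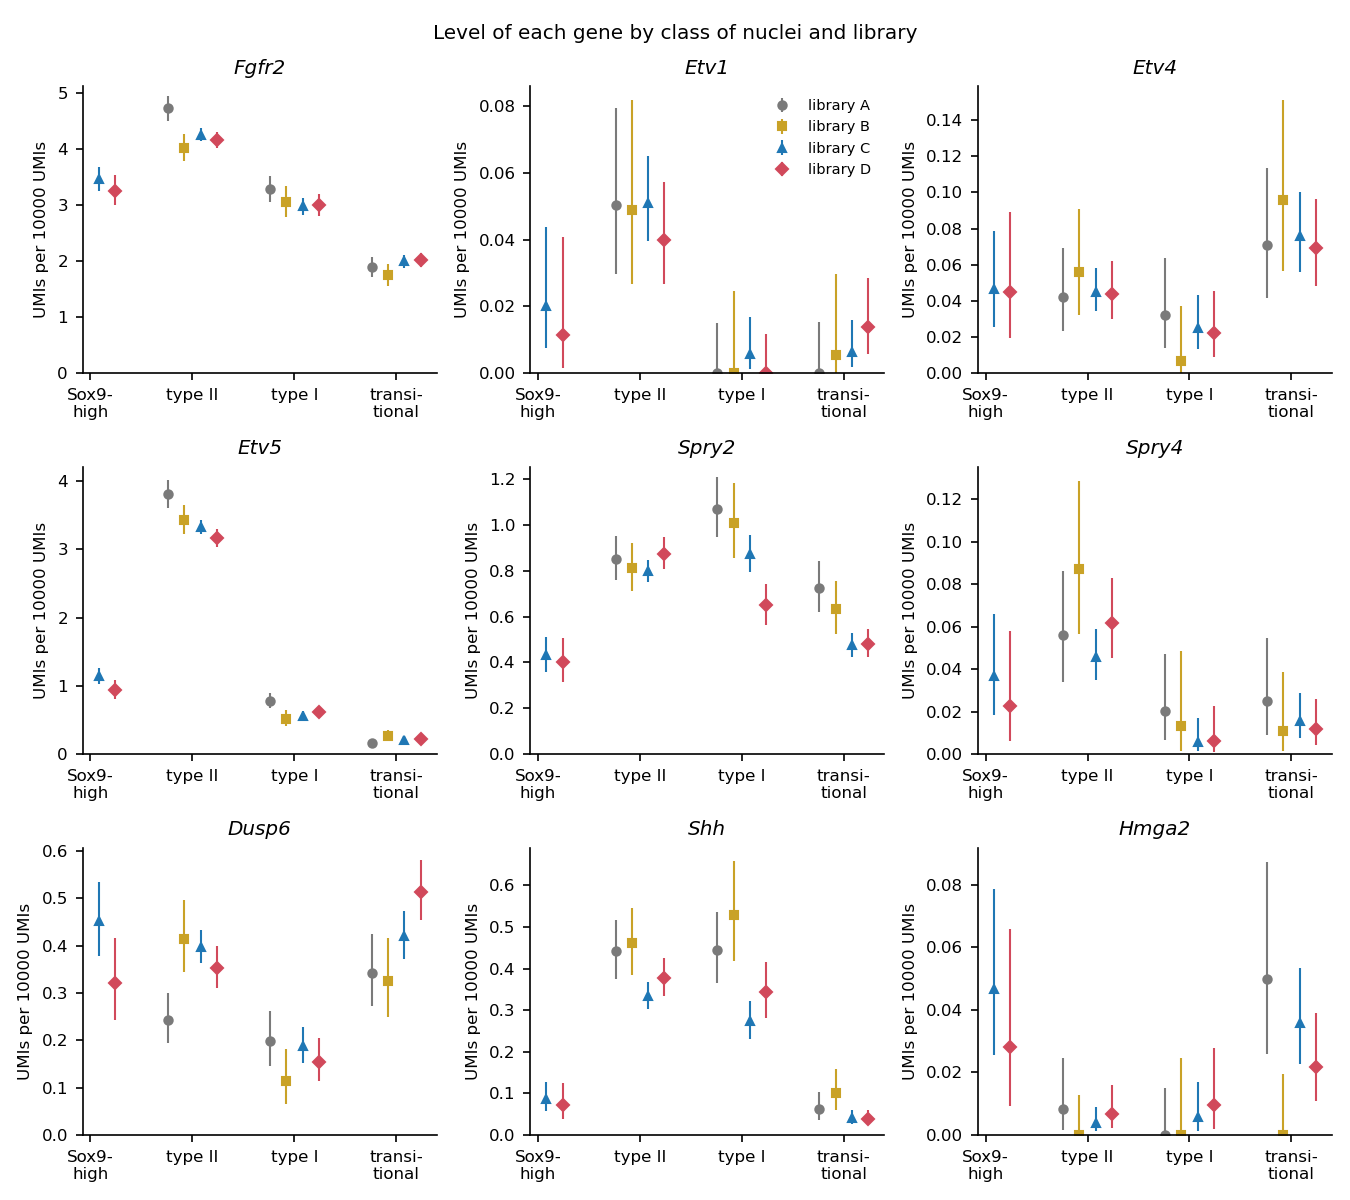
Level of each gene (UMIs per 10000 UMIs, y axis from 0) in Sox9-high, type II, type I and transitional nuclei, with 1 point per library and exact Poisson 95% intervals; Sox9-high points are shown for C and D, since A held 1 and B no such nucleus. Etv5 stood at 3.16 or more in type II nuclei and at 0.266 or less in transitional nuclei in every library.

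Type I nuclei had none of the 9 genes higher and 6 lower, namely Etv1, Etv4, Etv5, Spry4, Dusp6 and Hmga2 (over all genes, 3.01% higher and 9.45% lower). The other nuclei include the type II nuclei, where Etv1, Etv5 and Spry4 were called higher, and the part of this was not tested. The Hmga2 call rested on 6 UMIs in type I nuclei, with a fold of 0.386 in C. In D its fold was 0.827, from too few UMIs for a call. Transitional nuclei had 1 higher, Hmga2, and 4 lower, Etv1, Etv5, Spry4 and Shh (7.58% and 6.96%). The median log2 folds of the 9 genes were -1.17 in type I and -0.78 in transitional nuclei, against -0.01 and 0.04 over all genes.

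The genes whose levels ran most like those of Etv5 and Fgfr2 were found over 22 combinations of class and library and 10432 genes. These combinations share libraries and depth, so the correlations are descriptions. For Etv5 they included Dram1 (Pearson r of 0.986), Abca3 (0.975), Nrp1 (0.974) and Ppp1r14c (0.974). Abca3, a lipid transporter of lamellar bodies, is one of the markers that defined type II nuclei. For Fgfr2 they were Secisbp2l (0.982), Etnk1 (0.972), Scarb2 (0.971), Plcg1 (0.963), which encodes a phospholipase downstream of FGF receptors, and Txlng (0.957).

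In Sox9-high nuclei 1 of the 9 genes, Hmga2, was at least 2-fold higher and 1, Shh, at least 2-fold lower, while 7.01% of 16500 genes were higher and 4.52% lower. The median log2 fold of the 9 was -0.09, against 0.03 over all genes.

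Shh, the hedgehog ligand of the fetal tip, was lower. Sox9-high nuclei held 26 UMIs in C (0.0869 per 10000) and 13 in D (0.0733), while all nuclei of C and D stood at 0.218 in both. Transitional nuclei stood at 0.0418 in C and 0.0397 in D, below the Sox9-high nuclei of each, so a low Shh level was not particular to Sox9-high nuclei. Against all other nuclei the fold in Sox9-high nuclei was 0.317 over all libraries (0.225 to 0.434), 0.380 in C (0.247 to 0.561) and 0.320 in D (0.169 to 0.551). With nuclei from 3 Sox9 UMIs on in the class it was 0.513, under the call, and from 10 on 0.206. A UMI was found in 9.29% of Sox9-high nuclei (3.99% after thinning to 5000 UMIs), in 33.6% of type II nuclei (16.8%) and in 2.30% of the 174 nuclei of the airway secretory-like cluster (1.18%), whose median depth of 14336.5 UMIs was close to that of the Sox9-high nuclei.

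Because Sox9-high nuclei hold many transitional and few type I nuclei, they were also set beside nuclei of C and D without a Sox9 UMI, weighted to the same mix of programme and library. Shh was then at 0.493 of the weighted level (0.508 in C and 0.467 in D). Within the type II programme it was at 0.492 (0.294 to 0.777, 19 UMIs), and within the nuclei low for all lists at 0.410 (0.180 to 0.821, 9 UMIs). In the transitional programme 3 UMIs were left in 100 Sox9-high nuclei, and the interval (0.0885 to 1.45) included 1. In mixed nuclei the fold was 0.517 (0.139 to 1.35, 4 UMIs). In the 10 nuclei of the type I programme it was 0.927 (0.250 to 2.41, 4 UMIs), with accessibility at 0.917 (0.499 to 1.55).

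Shh also stepped down with the number of Sox9 UMIs. From 0 through 1 to 2, 3 to 4, 5 to 9 and 10 or more Sox9 UMIs, its level in C was 0.238, 0.209, 0.207, 0.110 and 0.0508, and in D 0.234, 0.229, 0.179, 0.0951 and 0.0536. Every step was below the one before it in both libraries. Median depth was higher along the same steps, from 10387 to 15314 UMIs in C and from 11173.5 to 15429 in D, and its part in the result was not tested. The steps, here and below, were not matched for programme, and the part of the programme mix was not tested. Etv5 was also lower with 10 or more Sox9 UMIs than with 0, at 0.720 against 1.55 in C and 0.954 against 1.35 in D.

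Spry2 went the same way without passing the call. It stood at 0.431 in C and 0.400 in D in Sox9-high nuclei, a fold of 0.566 (0.489 to 0.651) and of 0.676 against the weighted nuclei. With rising Sox9 UMIs its level was 0.754, 0.614, 0.550, 0.475 and 0.364 in C and 0.705, 0.660, 0.502, 0.499 and 0.311 in D. Within the type II programme its fold was 0.941 (0.745 to 1.18), in the transitional programme 0.537 (0.379 to 0.743) and in nuclei low for all lists 0.517 (0.372 to 0.705). The difference between programmes was not tested.

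Fgfr2 was close to even, at 3.46 in C and 3.26 in D and 1.095-fold over the others (1.04 to 1.15). Within the transitional programme it was 1.63-fold higher than in nuclei without a Sox9 UMI (1.47 to 1.81), and within type II 1.09-fold (0.992 to 1.20). Etv5 stood at 1.14 in C and 0.936 in D, below type II nuclei (0.316 of their level) and above transitional nuclei (5.11-fold). Against all other nuclei its fold was 0.730 (0.666 to 0.798) and against the weighted nuclei 0.943. Within the type II programme Etv5 was at 0.958 (0.855 to 1.07).

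Dusp6 was at 0.451 in C and 0.321 in D, 1.20-fold over the others (1.03 to 1.38), with the 2 libraries on opposite sides of 1 (1.32 and 0.894). Against nuclei without a Sox9 UMI it was 2.55-fold higher in nuclei low for all lists (1.89 to 3.43), at 0.460 in mixed nuclei (0.184 to 0.957, 7 UMIs), at 0.869 in the type II programme (0.602 to 1.22) and at 0.986 in the transitional programme (0.743 to 1.29). The difference between programmes was not tested. Etv4 (22 UMIs, fold 0.941), Spry4 (15 UMIs, 1.04) and Etv1 (8 UMIs, 0.622) had intervals that included 1. Against the weighted nuclei Etv1 was at 0.340, past the call. That value went with the nuclei low for all lists, where those without a Sox9 UMI held 57 UMIs at 0.103 (fold 0.233, 0.0614 to 0.630), and within the type II programme the fold was 0.803 (0.213 to 2.16). The airway secretory-like cluster, rich in Etv1, held 0 Sox9-high nuclei, and its part in the weighted value was not tested.

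**Figure D2:**
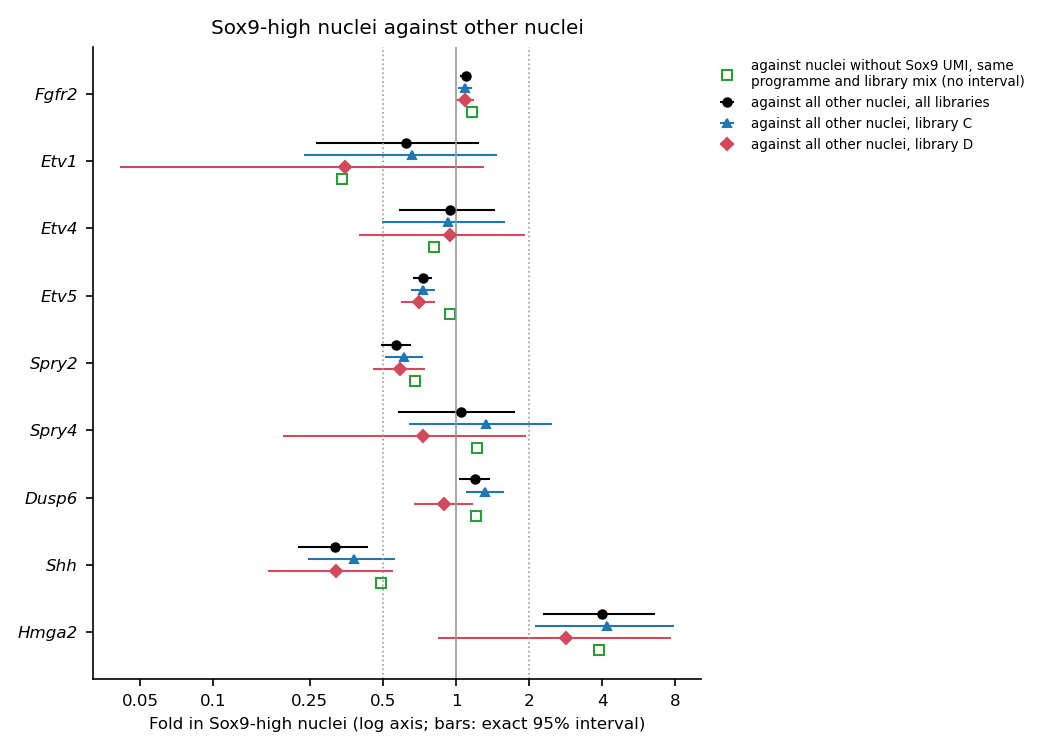
Fold of each gene in Sox9-high nuclei on a log axis, against all other nuclei (all libraries, C and D, with exact 95% intervals) and against nuclei without a Sox9 UMI weighted to the same mix of programme and library (open squares, no interval). Dotted lines mark 2-fold: Shh lies below and Hmga2 above in C and in D, and the Shh square, at 0.493, lies just past the lower line.

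**Figure D3:**
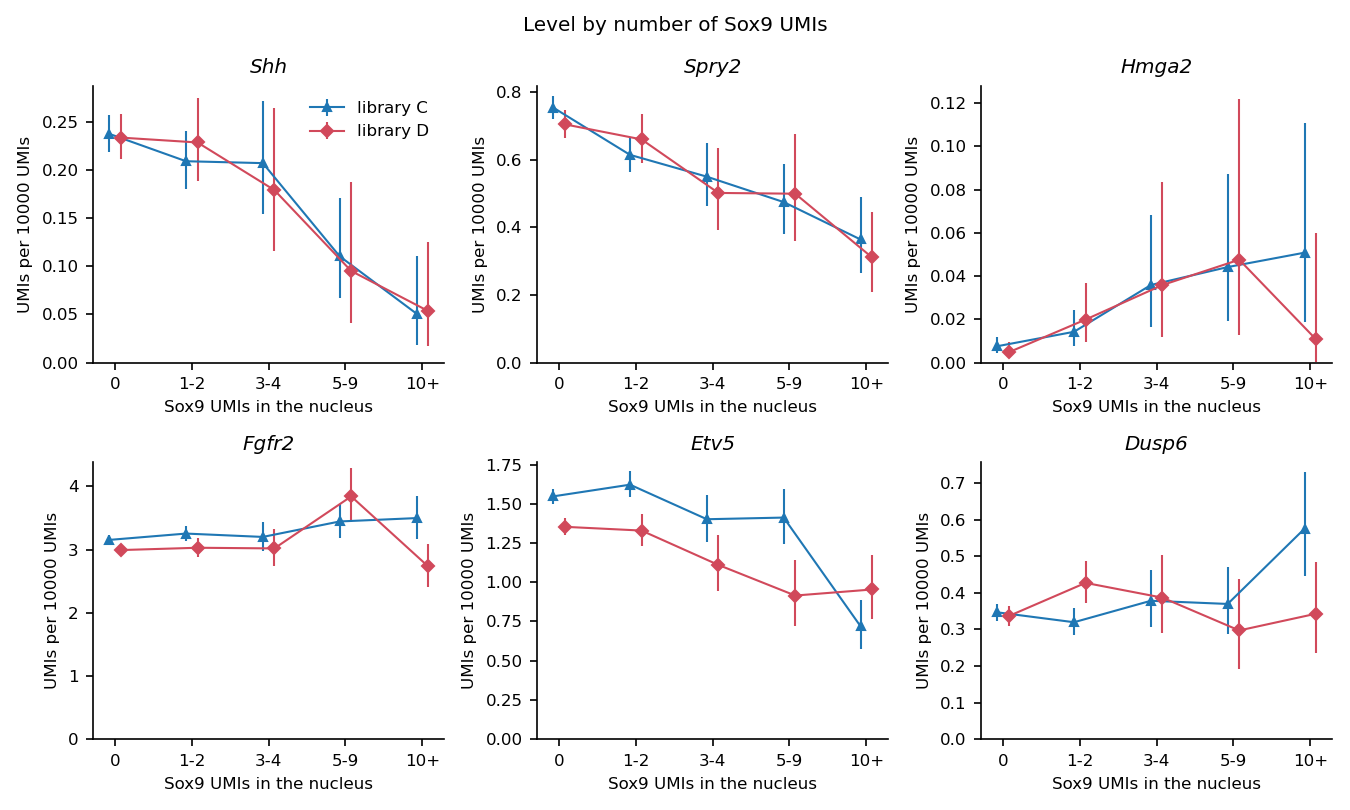
Level (UMIs per 10000 UMIs) of 6 of the genes by the number of Sox9 UMIs in a nucleus, in libraries C and D, with exact Poisson 95% intervals. Shh and Spry2 were lower in each library with 10 or more Sox9 UMIs than with none, while Fgfr2 stayed between 2.73 and 3.84.

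Hmga2 was higher in Sox9-high nuclei, from few molecules. There were 19 UMIs in 10 of the 312 nuclei (14 UMIs in 7 nuclei of C, 5 in 3 nuclei of D), and 1 nucleus held 6. The level was 0.0397 against 0.00996 in the other nuclei, a fold of 3.99 (2.29 to 6.62), with 4.20 in C (2.11 to 7.86) and 2.85 in D (0.846 to 7.66), where 28 UMIs in all were too few for a call. Against transitional nuclei, a class that includes nuclei with some Sox9 UMIs though fewer than 5, the ratio was 1.36 (0.754 to 2.37). Against nuclei without a Sox9 UMI it was 4.01-fold higher within the transitional programme (1.11 to 13.9, 6 UMIs). In nuclei low for all lists it was 4.43-fold higher (1.71 to 11.9, 12 UMIs). No UMI lay in the 55 nuclei of the type II programme, where the interval of the fold ran from 0 to 11.1. All of these comparisons had too few UMIs for a call, and a difference between programmes cannot be read from them. An unnamed cluster led by Col9a3 and Col27a1 held 140 Sox9-high nuclei, more than any other cluster; without these 140 the fold was 1.44, no longer past the call. Without the nucleus with most Hmga2 UMIs it was 2.74. Against the weighted nuclei without a Sox9 UMI Hmga2 was 3.88-fold higher (3.71 in C and 4.45 in D, there from 5 UMIs). With rising Sox9 UMIs its level was 0.00755, 0.0142, 0.0359, 0.0442 and 0.0508 in C. In D it was 0.00476, 0.0199, 0.0358, 0.0476 and 0.0107, the last from 1 UMI. Each of these steps held 19 UMIs or fewer.

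Accessibility is given as counts in the peaks over a gene and 2000 bp on either side, per 10000 counts in peaks, with a call from a log2 difference of 0.32 on, a smaller step than for RNA. In Sox9-high nuclei none of the 9 was higher and 1 was lower, Shh (over 19441 genes, 9.96% higher and 10.5% lower). In type II nuclei none was higher and 1, Hmga2, was lower at 0.795 (6.13% and 9.56%). In type I nuclei Shh was higher at 1.33 and Etv1 lower at 0.789 (3.15% and 8.35%), and in transitional nuclei none was higher and Shh lower at 0.652 (8.83% and 7.21%).

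Accessibility over Etv5 was near even where its RNA was not. Its 14 peaks summed to a fold of 1.02 in type II nuclei (0.977 to 1.06), 0.985 in type I, 0.974 in transitional and 1.02 in Sox9-high nuclei, while its RNA spanned 16.2-fold between type II and transitional nuclei. Single peaks did differ. The peak over the start, whose upstream sequence is shown above, was at 0.936 in type II nuclei (0.879 to 0.997). The peak at chr16:22379195-22380089, centred 58726 bp downstream of the nearer of the RefSeq starts of Etv5, was 2.22-fold more open in type II nuclei (1.82 to 2.70), and the peak at chr16:22388880-22389795 was at 0.390 (0.287 to 0.520). In transitional nuclei the last of these stood at 0.107 counts per 10000, against 0.0238 in type II nuclei. These 2 peaks were chosen after their values were seen.

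At Shh, RNA and chromatin went the same way. Sox9-high nuclei held 206 counts over its 4 peaks, a fold of 0.502 (0.434 to 0.576), with 0.566 in C and 0.464 in D. Against the weighted nuclei without a Sox9 UMI it was 0.567 (0.492 to 0.650), and 0.702 within the type II programme (0.534 to 0.908). By Sox9 UMIs the accessibility was 0.864, 0.733, 0.771, 0.468 and 0.466 in C and 0.816, 0.783, 0.587, 0.444 and 0.309 in D. Both libraries were lower from 5 Sox9 UMIs on than at any lower number. Transitional nuclei, low in Shh RNA, were also less open, and type I nuclei more open.

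Within the gene, at chr5:28456840-28467101, the peaks differed in fold. The adjacent peaks at chr5:28458676-28459452 and chr5:28459459-28459807 were at 0.412 (0.330 to 0.508) and 0.473 (0.352 to 0.623) in Sox9-high nuclei, while those at chr5:28464400-28465141 and chr5:28466268-28467182 were at 0.762 (0.550 to 1.03) and 0.781 (0.478 to 1.21). The first of these peaks held 0.183 counts per 10000 in Sox9-high nuclei, 0.488 in type II, 0.557 in type I and 0.292 in transitional nuclei. It was lower in Sox9-high nuclei inside the Sox9-rich cluster (0.142) and outside it (0.213) than in all other nuclei (0.444).

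Hmga2 showed 1 peak that stood apart from the other 7. Among the 63 peaks, 2 were at least 2-fold more open in Sox9-high nuclei and 4 at least 2-fold less open (over 103816 peaks, 7.61% and 5.26%). The peak at chr10:120417186-120418246, within the gene and centred 58753 bp downstream of its start, was 6.14-fold more open (4.299 to 8.65), with 7.34 in C and 3.10 in D. It held 48 counts in Sox9-high nuclei of 168 in all. By Sox9 UMIs it stood at 0.0160, 0.0165, 0.0479, 0.0986 and 0.186 in C and at 0.0185, 0.0103, 0.0379, 0.0103 and 0.0919 in D, where the step of 5 to 9 rested on 1 count. Outside the Sox9-rich cluster Sox9-high nuclei still held 0.0533 (0.0298 to 0.0879), against 0.0161 in all other nuclei. The other 7 Hmga2 peaks had folds between 0.667 and 1.43, and the gene as a whole was at 1.11, with 1.32 in C and 0.849 in D. The other peak past 2-fold was an Etv5 peak at chr16:22416218-22416945 (2.02-fold, 27 counts, 1.46 in C and 2.31 in D).

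**Figure D4:**
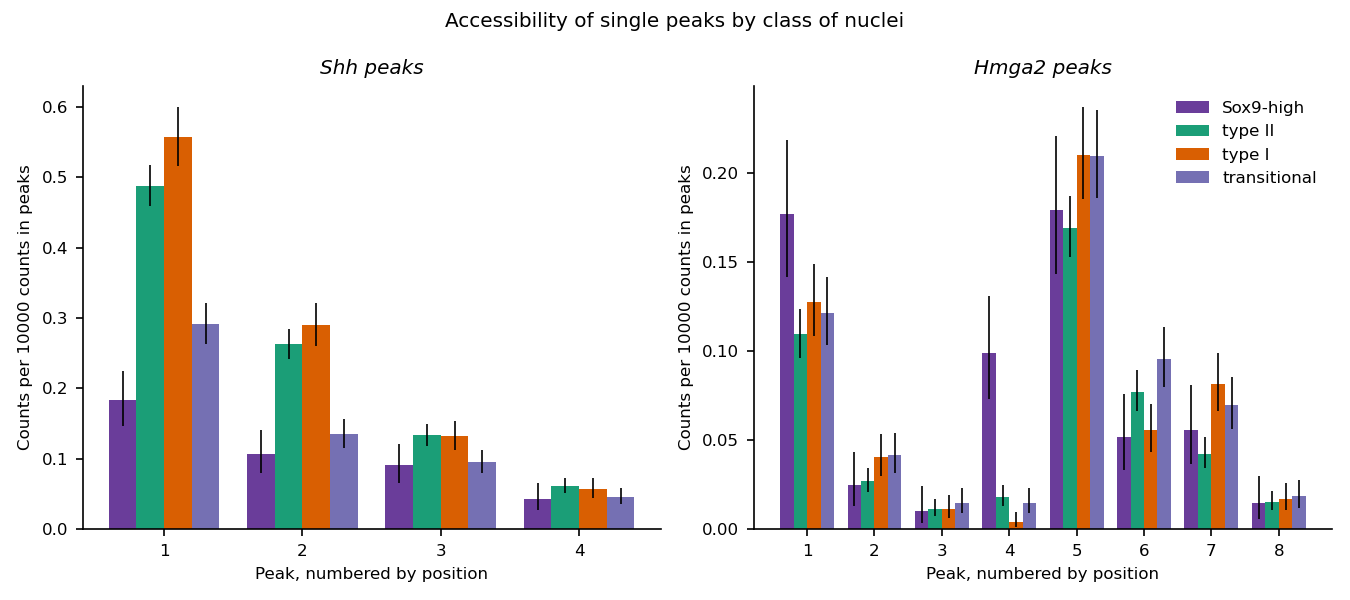
Counts per 10000 counts in peaks (y axis from 0, exact Poisson 95% intervals) for the 4 Shh peaks and the 8 Hmga2 peaks, numbered by position, in 4 classes of nuclei. Shh peaks 1 and 2 are lowest in Sox9-high nuclei, and Hmga2 peak 4 stands at 0.0987 in them against 0.0181 or less in the other 3 classes.

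The rest of the FGF pathway was set beside these genes. In lists of 4 to 13 genes, counts of 0 or 1 are near the shares over all genes (7.01% higher and 4.52% lower) and say nothing particular of a list. Of 5 FGF ligands tested 0 were called in Sox9-high nuclei: Fgf1, the most counted, was at 0.543, Fgf18 at 0.510 and Fgf2 at 1.22 from 3 UMIs. Fgf20, at 0.300 from 1 UMI, was not called, since counts under 3 are set to 3. Fgf10, the mesenchymal ligand of lung branching, was counted 7 times in all nuclei. Among the other receptors, Fgfrl1, a decoy receptor without a kinase, was 2.61-fold higher (2.45 in C, 2.85 in D) and Fgfr3 lower at 0.465 (0.431 and 0.547). Fgfr4 was 2.10-fold higher from 10 UMIs, with an interval that included 1, and Fgfr1 was at 1.27 from 3 UMIs. Of 13 genes of signal transduction, 12 lay within 2-fold, including Braf at 0.864, Mapk3 at 1.06 and Map2k2 at 0.936. The other one, Frs3, was at 0.360 from 3 UMIs (an interval that included 1).

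Of 8 other feedback inhibitors tested 2 were higher and 1 lower, against 7.01% and 4.52% over all genes. Dusp5 was at 2.00, just past the call, and at 1.87 in C and 1.82 in D, where it was under it. Il17rd was 2.69-fold higher, but 3.93-fold in C and 0.995-fold in D. Dusp7 was lower at 0.478, and Spred1, Spred2 and Spry1 stood at 0.780, 0.725 and 0.739. Of 9 ERK-induced genes 0 were called, a count near the 7.01% and 4.52% over all genes. Their median log2 fold was 0.59, against 0.03 over all genes, and 0.41 in transitional nuclei. Fos was at 1.78 (1.69 to 1.87) and Ier3 at 1.57, while Phlda1 was at 0.710 and Ier2 at 1.11.

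Of 8 other genes of the distal tip tested, 0 were higher and 1 was lower, counts near the shares over all genes (7.01% and 4.52%). Bmp4, a growth factor of the tip, was the lower one at 0.418 (0.452 in C, 0.390 in D). Foxp2 stood at 0.563, Foxp1 at 0.867, Nkx2-1, the lung lineage factor, at 0.721, and Id2 at 1.12. Of 7 tested fetal genes of the Lin28 and Igf2bp group, 1 was higher, Igf2 (2.42-fold from 5 UMIs, with an interval that included 1), a count near the 7.01% over all genes, while Igf2bp2 was at 1.09, Arid3a at 0.903, Igf2bp3 at 0.753 and Hmga1 at 1.08. Lin28a was counted 4 times in all nuclei and H19 once.

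In the hedgehog pathway, Gli3, a transcription factor that mostly acts as a repressor, was 2.55-fold higher (1.67 in C, 4.00 in D) and Hhip, an inhibitor that binds the ligand, 2.49-fold from 4 UMIs, with an interval that included 1. Ptch1, the receptor and a target of the pathway, was at 0.983, Disp1 at 1.08, Sufu at 1.05 and Smo at 0.890. Gli1, the usual readout of hedgehog signalling, was counted 7 times in all nuclei.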

How the data were processed

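The authors deposited raw counts: UMIs per gene and counts per peak for each nucleus, from nuclei pooled over all samples. The submitters' processing notes name Signac 1.10.0, Seurat 4.3.0 and Cell Ranger 6.0.1, with GRCm38 and mm10 as builds, and no peak caller. Nuclei needed 500 UMIs, 300 genes and less than 20% mitochondrial UMIs (25 removed). Scrublet, run in scanpy 1.11.5, marked 15 nuclei (0.208%), too few for a caller that works. These were removed, and doublets may remain. Genes needed 30 UMIs and gene windows 100 ATAC counts. Counts under 3 were set to 3 for a call. Ratios carry exact conditional 95% intervals (scipy 1.17.1). These cover counting error only and take each count as independent, so they are too narrow where UMIs gather in few nuclei, as for Hmga2. Of RefSeq gene starts in GRCm38.p6, 46.6% lay in a peak, against 6.48% of positions shifted away from them.

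Clusters (2000 variable genes without the 9 genes and the cartilage list, 30 components, 15 neighbours, Leiden resolution 0.8) were named from at least 3 markers and 30% of a list, a rule set after the data were seen. The folds were checked on simulated counts of well-counted genes only. That check did not cover genes as scarce as Hmga2, Etv1, Spry4 and Etv4. Members and lists were chosen with earlier results of these data known. Named were the 9 genes, Sox9, in each list the 4 most counted genes and those past 2-fold, and the 5 genes most like Fgfr2 and Etv5; some genes under this rule are not reported here. Fgf10, Lin28a, H19, Gli1, Etv1 in the airway cluster and all single peaks were chosen after their values were seen.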

Additional observations from a re-analysis of the deposited data

How the results depend on the processing

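No paired analysis was possible because no label ties a barcode prefix to a sample, so the fits with a replicate block, edgeR and DESeq2 were not run. Of 288 folds of single genes under other settings 258 stayed within the reported 95% interval and 30 moved out of it. Only folds past the call, those of Shh and Hmga2 RNA and of Shh accessibility, could count as reversed, and 0 did. In Sox9-high nuclei, over 16 settings, the Shh fold lay between 0.206 and 0.513 in RNA and between 0.430 and 0.632 in accessibility, Spry2 between 0.444 and 0.676, and Hmga2 RNA between 1.44 and 7.16. RNA of Dusp6 (0.868 to 1.41), Spry4 (0.702 to 1.23) and Etv4 (0.585 to 1.02) lay on both sides of 1, as did accessibility of Hmga2 (0.847 without library C, 1.31 without D), Dusp6, Etv1, Etv4, Etv5 and Spry2 (0.878 to 1.13 over these 5). Counts of the 9 genes past the call moved as follows. In Sox9-high RNA, higher: 0 without the Sox9-high nuclei of the Sox9-rich cluster. Lower: 0 from 3 Sox9 UMIs on, 2 from 10 on, 2 against weighted nuclei, 2 without the highest 5% of Scrublet scores, 3 with a 1.5-fold call and 3 from 5 Sox9 UMIs per 10000 on. With a 1.5-fold call, 5 were higher in type II, 1 in type I and 2 in transitional RNA. Without library C, 0 were lower in type II RNA. In Sox9-high accessibility, higher: 1 from 10 Sox9 UMIs on, 2 without library D and 1 with a window of 10 kb. In type II accessibility, higher: 1 without library A and 1 with 10 kb. Lower: 0 without D, 2 without the highest Scrublet scores, 2 with Leiden clusters, 0 with peaks as 0 or 1 and 0 with a 1.5-fold call. In type I accessibility, higher: 0 with peaks as 0 or 1 and 0 with a 1.5-fold call. Lower: 0 without A, 2 without the highest Scrublet scores, 0 with the highest 25% as cut, 2 with 10 kb, 0 with peaks as 0 or 1 and 0 with a 1.5-fold call. The causes were not tested. Depth limits Etv1, Etv4, Spry4 and Hmga2, with 8 to 22 UMIs each in Sox9-high nuclei.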
